A study of Hydra vulgaris with 99 samples.

Results

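The loci described here are those with more reads at both ends of the Hydra body than in the middle of it. A locus is a set of assembled transcript sequences that share a locus identifier. Reads were summed per locus and scaled by the total of the library to CPM, and L stands for log2 of the group mean CPM plus 1. A locus qualified when L differed by less than 2 between heads and feet, when the lower of these end levels was at least 3, and when that lower level exceeded the mean of both freshly cut mid-gastric groups by at least 1. This last difference is called the end excess below. The rule set no upper limit on the mid-gastric level, so a chosen locus can have many reads there too. Of 25879 loci, 394 met the 3 thresholds, and the 200 with the largest end excess are described. They were therefore chosen on heads, feet and the mid-gastric tips at 0 h, and the locus levels in those libraries are described without a test between them. What is tested in heads and feet is only how the reads of a locus divide between its sequences.

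The samples were Hydra vulgaris of strain Jussy, fed 3 times a week and given no treatment, and the labels name no transgene, mutation or agent in any group. Homeostatic heads were apical regions cut off below the tentacles, homeostatic feet were the basal disk with the lower peduncle, and intact animals were whole polyps. Regenerating tips came from 3 series: heads regrowing after decapitation at 80% of the body length, heads regrowing after a section at 50%, and feet regrowing after that same section. They are called decapitation tips, mid-gastric apical tips and basal tips below. Each series has 10 times, of which 0, 0.5, 8, 24 and 48 h after section are used most below. Each of the 33 groups had 3 libraries, A, B and C, each a pool of tissue from 20 to 25 animals.

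Hydra is a tube of 2 epithelial layers with a head of mouth and tentacles at the apical end and an adhesive basal disk at the basal end. Epithelial cells and stem cells divide along the body column, and the epithelial cells are displaced towards both ends, where they stop dividing, differentiate and are finally shed. The nerve net is also denser in the head and in the foot than along the column. A fragment of the column rebuilds a head at its apical cut and a foot at its basal cut, and patterning in the head depends on Wnt signalling. The identifiers in the files could not be paired with gene names: 0 matched the RefSeq gene table. No gene names, functions or sequences are therefore given for these loci, and the labelled tissues could not be checked against marker genes.

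Read totals ran from 26401348 to 54273942 per library (median 33209894). Log2 CPM of replicates correlated with a median Pearson r of 0.990 over 14490 loci within a group. The lowest r, 0.969, was that of library A of the mid-gastric apical tips at 0 h. Library A of the basal tips at 0 h followed with 0.971. Both entered the choice of loci, and 24 of the 200 loci were not chosen again without them. All 200 loci passed the filter on low counts, as did 20883 loci in all. Each library is one pool of animals, and p-values measure the spread between such pools. In bulk RNA, more cells of a type and more RNA per cell cannot be told apart.

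The end excess of the 200 loci ran from 1.34 to 4.96 on the log2 scale, with a median of 1.73. It was at least 2 in 68 loci and at least 3 in 17. The last locus inside the list, loc11689, had an end excess of 1.340, and the first outside, loc23657, had 1.339. Over the 9197 loci whose lower end level was at least 3, the median was -0.06. In 196 of the 200 loci all 6 libraries of heads and feet lay above all 6 mid-gastric libraries at 0 h. The same number had all 6 end libraries above the 3 decapitation tips at 0 h. The rule did not use those tips, but it did use the end libraries, so both counts are a description of the chosen loci. The shares over all loci are not given for them.

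Within the allowed range, the loci differed in which end was higher. L had a median of 5.33 in heads and 5.15 in feet. The level was higher in heads for 125 loci and higher in feet for 75, and the head and foot libraries overlapped in 78. These counts describe libraries that chose the loci, and the shares over all loci are not given. Loci with L at least 1 higher in heads are called head-leaning (30 loci), those at least 1 lower in heads foot-leaning (17 loci), and the remaining 153 even. The head-leaning loci had a median log2(CPM + 1) of 6.19 in heads and 4.64 in feet, and the foot-leaning loci 4.09 in heads and 5.48 in feet, as means of 3 libraries.

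Single-sequence loci made up 29.0% of the members (58 of 200), against 20.6% of the 9197 loci at that level. Both sets had a median of 3 sequences per locus. Sequences whose identifier carries the prefix vl made up 37.2% of the members' sequences and 35.4% of those of the 9197 loci. What the prefix stands for is not given in the sources used here.

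The largest end excess belonged to loc14597, a foot-leaning locus with 1 sequence. It had 282, 275 and 269 CPM in heads and 992, 1063 and 633 CPM in feet. It had 2.14, 2.20 and 10.9 CPM in mid-gastric apical tips at 0 h, and 17.4, 9.81 and 8.78 CPM in basal tips at 0 h. Feet were above heads in every library, and both ends were far above the column. Library C of the mid-gastric apical tips stood well above its replicates. The second, loc17189, is an even locus of 13 sequences. It had 110, 96.6 and 99.2 CPM in heads and 133, 110 and 101 CPM in feet, which overlapped. The mid-gastric apical tips at 0 h had 2.03, 3.39 and 5.47 CPM, and the basal tips at 0 h had 2.64, 4.63 and 4.46 CPM.

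**Figure D1:**
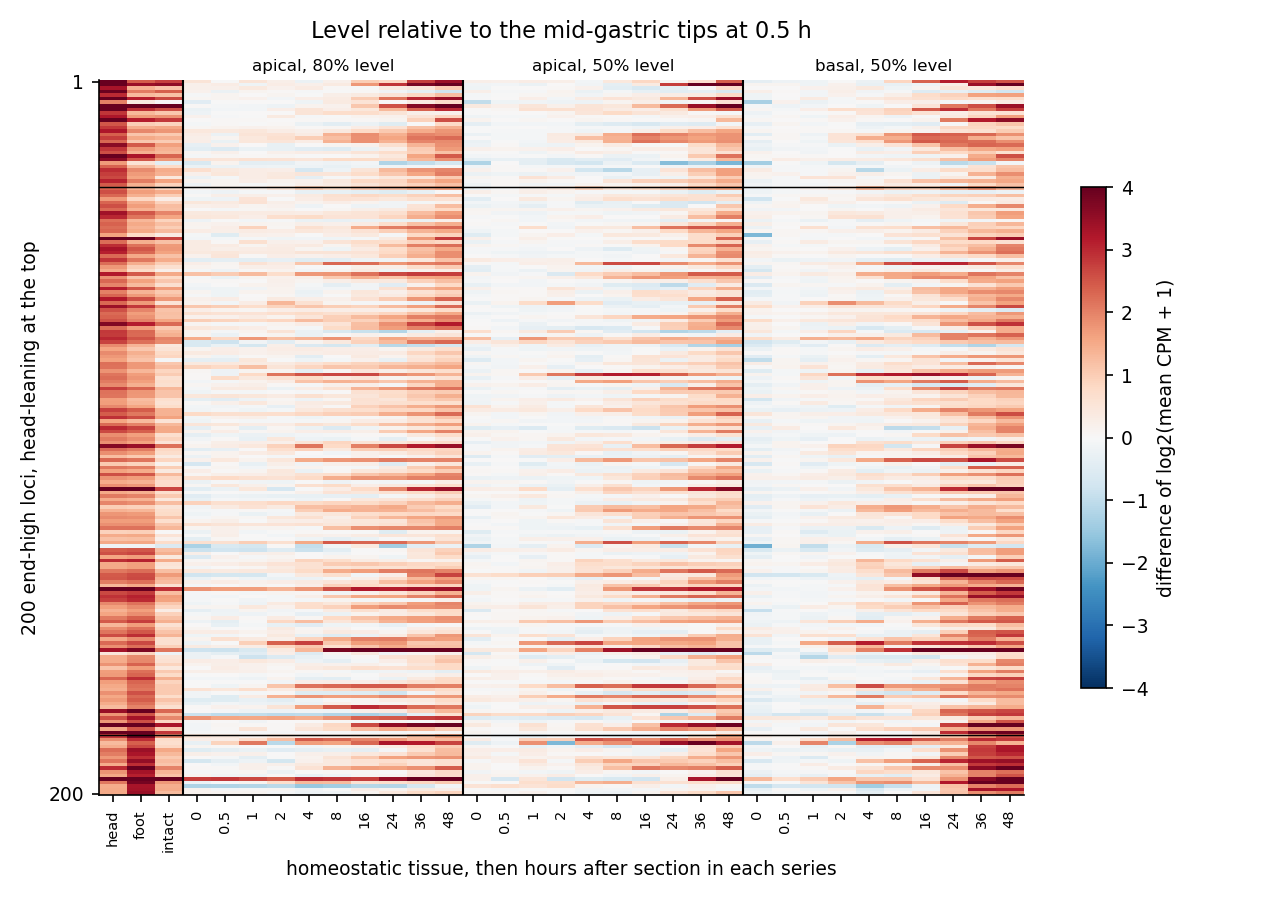
Level of each of the 200 loci (rows, ordered by lean with head-leaning loci at the top) in every group (columns), as the difference of log2(mean CPM + 1) from the mean of both mid-gastric groups at 0.5 h. Heads and feet are high by the rule that chose the loci, and the late times of the 3 regenerating series stand above their early times.

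Taken as a sum, the 200 loci held 2.45% to 2.68% of all reads in the 3 head libraries and 1.84% to 2.39% in the foot libraries. They held 1.12% to 1.34% in intact animals, 0.601% to 0.747% in decapitation tips at 0 h, 0.431% to 0.626% in mid-gastric apical tips at 0 h and 0.367% to 0.570% in basal tips at 0 h. Few loci carry these sums: the 5 with most reads held 41.2% of the sum in heads and 39.3% in feet. Medians over the 200 loci are used below, since they do not depend on those 5.

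Intact animals, which include both ends, were compared with column tissue to measure the loci in libraries that did not choose them. Intact animals had a median log2(CPM + 1) over the 200 loci of 4.10 ± 0.15, against 2.99 ± 0.07 in decapitation tips at 0 h (mean ± SD, n = 3 each). Heads had 5.30 ± 0.16 and feet 5.10 ± 0.17. A locus was called by edgeR's quasi-likelihood test where its Benjamini-Hochberg adjusted p was below 0.05 and its log2 fold change was 1 or more in size. By this rule 98 of the 200 loci were higher in intact animals than in decapitation tips at 0 h. The percentage of all 20883 loci called higher was 5.05. The median log2 fold change of the 200 loci was 1.00, against 0.03 over all loci, and 199 of them had a positive value. By edgeR 0 were called lower, 0 had a lower level at an unadjusted p under 0.05, and DESeq2 called 0 lower. Against both mid-gastric groups at 0.5 h together, 128 were higher in intact animals, where 6.3% of all loci were. The median log2 fold change was 1.17, and 24 of 30 head-leaning, 90 of 153 even and 14 of 17 foot-leaning loci were called higher.

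The loci that rose most in intact animals over decapitation tips were loc08344, an even locus of 1 sequence, and loc15106, a head-leaning locus of 2 sequences. For loc08344, intact animals had 6.12, 7.85 and 4.96 CPM, and the decapitation tips at 0 h had no read in any library. With the limit that a count of 0 allows (3 reads over the group), loc08344 was at least 232.7-fold higher in intact animals. For loc15106, intact animals had 5.99, 7.13 and 5.41 CPM, and the mid-gastric apical and basal tips at 0.5 h had no read in any of their 6 libraries. That made loc15106 at least 415.6-fold higher in intact animals than in those tips at 0.5 h. At 0 h the mid-gastric apical tips had 0, 1 and 11 reads of loc15106 and the basal tips 1, 1 and 3. The fold limits cover counting error only.

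**Figure D2:**
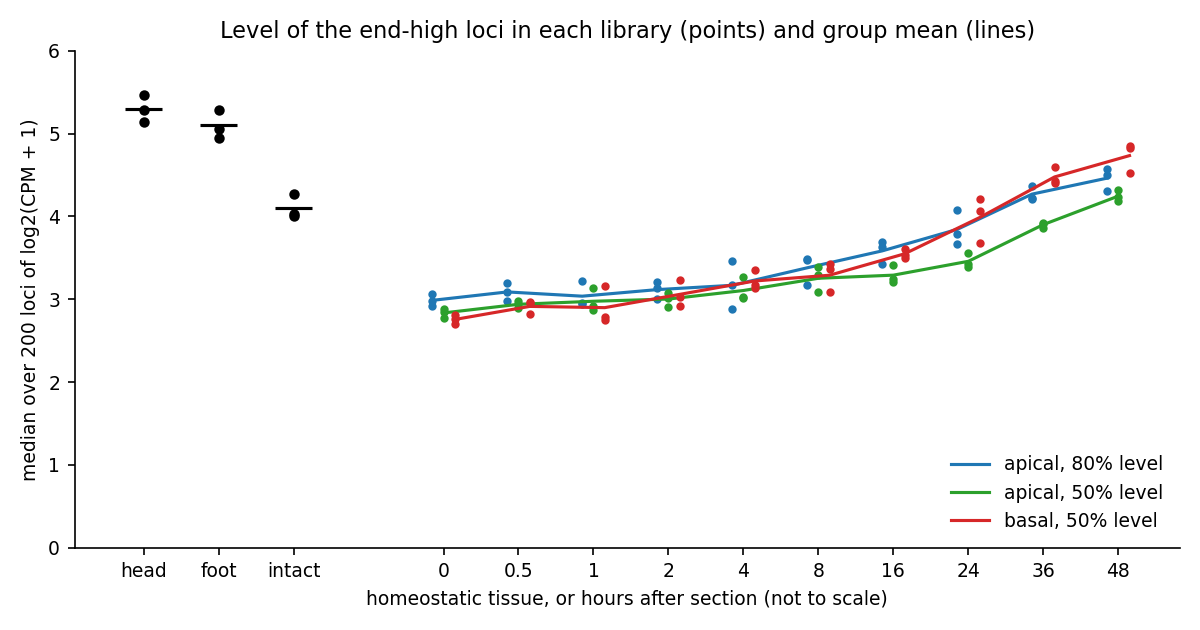
Median log2(CPM + 1) over the 200 loci in each library, one point per library, for the 3 regenerating series by time after section and for heads, feet and intact animals. The regenerating tips stay near 3 through the first hours and stand above 4 in every library at 48 h, where heads and feet stand near 5.

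The regenerating series asked how the loci came back in tips that had lost an end. The tips at 0.5 h served as the base, because the mid-gastric libraries at 0 h had chosen the loci. The median over the loci stayed near its starting level for the first hours and was higher at 48 h in all 3 series, while single loci differed. The median was 4.46 ± 0.14 in decapitation tips at 48 h, against 3.09 ± 0.11 at 0.5 h. It was 4.25 ± 0.07 in mid-gastric apical tips at 48 h, against 2.94 ± 0.04 at 0.5 h. It was 4.73 ± 0.18 in basal tips at 48 h, against 2.91 ± 0.08 at 0.5 h (log2(CPM + 1), mean ± SD, n = 3 each). In each series the 3 library medians at 48 h were above the 3 at 0.5 h.

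An F-test over the 8 later times against 0.5 h, called at an adjusted p under 0.05 by edgeR, found a change with time in 165 of the 200 loci in decapitation tips. The share over all loci was 27.5%. It found a change in 163 in mid-gastric apical tips, where the share over all loci was 33.9%, and in 179 in basal tips, where it was 39.8%. The median log2 change of the loci from 0.5 h, on the log2(mean CPM + 1) scale, was 0.30, 0.21 and 0.39 at 16 h in the decapitation, mid-gastric apical and basal tips. At 36 h it was 0.85, 0.68 and 1.37. This median was higher in basal tips than in both apical series at 2 h and at each later time. At 8 h it was 0.16, 0.08 and 0.19 in the same order of series. Over these 9 times the highest mean CPM fell at 48 h for 151 loci in decapitation tips, 133 in mid-gastric apical tips and 136 in basal tips. The last time sampled was 48 h, so loci still rising then are among them. The shares over all loci are not given for these counts.

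The times 8, 24 and 48 h were tested singly against 0.5 h of their own series, and within a series they share that base. In decapitation tips at 8 h 27 loci were higher, where 1.17% of all loci were. The number was 63 at 24 h, where 2.44% of all loci were higher, and 114 at 48 h, where 5.39% were. In mid-gastric apical tips it was 31 at 8 h (1.38% of all loci), 56 at 24 h (2.97%) and 108 at 48 h (6.14%). In basal tips it was 37 at 8 h (1.31%), 104 at 24 h (3.65%) and 149 at 48 h (5.94%). The medians of the log2 fold changes at 48 h were 1.20, 1.15 and 1.74 in these 3 series, and the medians over all loci at 48 h were 0, 0.02 and 0.04.

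Calls of lower levels were few. At 8 h they numbered 1 in mid-gastric apical tips (0.33% of all loci) and 2 in basal tips (0.503%). In decapitation tips edgeR and DESeq2 called 0 lower at 8 h, with 8 lower at an unadjusted p under 0.05, where edgeR called 0.182% of all loci lower. At 24 h 1 locus was lower in decapitation tips (0.924%) and 4 in mid-gastric apical tips (1.8%). In basal tips edgeR and DESeq2 called 0 lower at 24 h, with 4 lower at an unadjusted p under 0.05, where edgeR called 1.41% of all loci lower. In either direction the calls at 8 h numbered 27, 32 and 39 in the decapitation, mid-gastric apical and basal tips (1.36%, 1.71% and 1.81% of all loci). They were 16 in decapitation tips without library B, 21 in mid-gastric apical tips without library C and 25 in basal tips without library B.

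**Figure D3:**
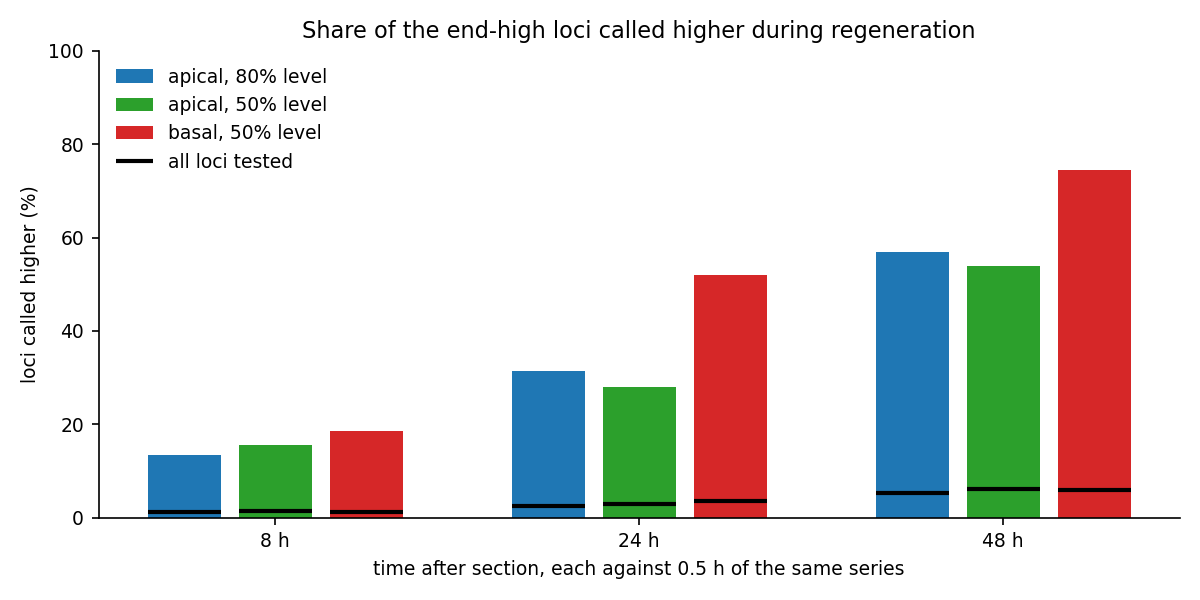
Percentage of the 200 loci called higher than at 0.5 h, at 3 later times in each series (bars, from 0), with the percentage over all 20883 loci (black lines). The count in basal tips at 24 h, 104 loci, stands beside 63 and 56 in the decapitation and mid-gastric apical tips.

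At 48 h 83 of the 200 loci were higher than at 0.5 h in all 3 series, which was so for 1.46% of all loci. Calls in at least 1 series numbered 169, and 31 loci were called higher in none. All 17 foot-leaning loci were higher in at least 1 series, as were 25 of the 30 head-leaning and 127 of the 153 even loci. The share of all loci called higher in at least 1 series is not given. In the decapitation, mid-gastric apical and basal tips taken singly it was 5.39%, 6.14% and 5.94%. At 24 h 45 loci were higher in all 3 series, where 0.867% of all loci were. At 8 h it was 21 loci, where 0.637% of all loci were. The 3 series have separate base libraries, but these were not independent. Same-lettered libraries at 0.5 h deviated together from their group means. The correlations were 0.546 to 0.693 between mid-gastric apical and basal tips. They were 0.322 to 0.559 between decapitation and mid-gastric apical tips.

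Among the loci that rose early, loc07230, an even locus of 2 sequences, changed most in decapitation tips. It had 41.7, 32.7 and 33.7 CPM in decapitation tips at 8 h, against 0.557, 0.281 and 0.640 CPM at 0.5 h. The log2 fold change was 6.28 (SE 0.47, edgeR adjusted p = 5.459e-17). At 48 h loc07230 had 58.4, 92.4 and 91.2 CPM in decapitation tips and 63.4, 73.9 and 76.2 CPM in mid-gastric apical tips. Those 6 values exceed the 26.3, 29.8 and 21.4 CPM of heads. In basal tips loc07230 had 32.5, 55.9 and 50.6 CPM at 48 h, against 1.14, 0.980 and 0.964 CPM at 0.5 h, and feet had 37.2, 37.9 and 28.3 CPM. Of the basal libraries at 48 h, 2 lay above all 3 feet and the remaining one within their range.

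The foot-leaning loc25605, of 1 sequence, was the locus that rose most by 8 h in mid-gastric apical and basal tips. At 8 h it had 2.59, 1.64 and 1.10 CPM in decapitation tips, 1.12, 1.96 and 1.32 CPM in mid-gastric apical tips and 1.00, 1.74 and 1.04 CPM in basal tips. At 0.5 h the highest of the 9 libraries of these series had 0.187 CPM of loc25605. The log2 fold changes at 8 h were 4.22 (SE 0.57), 4.19 (SE 0.60) and 4.92 (SE 0.67). The levels were therefore still low at 8 h. At 48 h loc25605 had 15.5, 32.4 and 25.1 CPM in basal tips, near the 24.1, 26.5 and 15.0 CPM of feet.

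The locus with the largest end excess rose late. In mid-gastric apical tips loc14597 had 174, 143 and 127 CPM at 48 h, against 2.16, 2.13 and 2.63 CPM at 0.5 h. The log2 fold change was 5.97 (SE 0.47, edgeR adjusted p = 2.893e-17). At 24 h those tips had 9.08, 3.30 and 3.07 CPM of loc14597 and at 36 h 58.7, 59.5 and 35.6 CPM, so that most of the rise came after 24 h. In basal tips loc14597 had 199.7, 243 and 169 CPM at 48 h, against 6.51, 7.04 and 8.77 CPM at 0.5 h. All 3 basal values were below the 633 CPM of the lowest foot. The head-leaning loc15106 had 11.6, 12.1 and 9.46 CPM in basal tips at 48 h and no read at 0.5 h, and was at least 368.5-fold higher at 48 h. In mid-gastric apical tips loc15106 had 1.84, 1.45 and 1.06 CPM at 48 h and again no read at 0.5 h, at least 48.9-fold higher. At 0 h those apical tips had 0, 1 and 11 reads of loc15106. In basal tips this head-leaning locus exceeded the 9.05, 7.22 and 7.45 CPM of feet in every library.

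Few members fell. At 48 h 1 locus was lower than at 0.5 h in decapitation tips (1.84% of all loci), 2 in mid-gastric apical tips (1.81%) and 1 in basal tips (2.45%). The head-leaning loc16788 fell in basal tips, with 1.51, 0.571 and 1.06 CPM at 48 h against 3.60, 2.55 and 1.59 CPM at 0.5 h. Its log2 fold change was -1.35 (SE 0.37, edgeR adjusted p = 0.003014), and without library B the adjusted p of loc16788 was 0.167. It was also the locus lower in decapitation tips at 48 h, where its libraries overlapped between the times. It is named there after its values were seen. The even loc08678 fell in mid-gastric apical tips, with 45.8, 50.4 and 66.5 CPM at 48 h against 165, 101 and 205 CPM at 0.5 h. The log2 fold change of loc08678 was -1.58 (SE 0.29, edgeR adjusted p = 1.085e-05). The head-leaning loc19128 was the other, with 0, 3.97 and 0.607 CPM in mid-gastric apical tips at 48 h against 6.03, 10.6 and 7.43 CPM at 0.5 h. The call of loc19128 was lost without library A (adjusted p = 0.0875), without library C (adjusted p = 0.117) and against the tips at 0 h, which had entered the choice of loci (adjusted p = 0.412).

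The even loc20200 had fallen in mid-gastric apical tips at 24 h and was back at 48 h. It had 0.742, 0.727 and 0.341 CPM at 24 h, against 6.83, 5.76 and 3.17 CPM at 0.5 h, and 11.4, 6.68 and 4.86 CPM at 48 h. The log2 fold change of loc20200 at 24 h was -3.13 (SE 0.45, edgeR adjusted p = 1.798e-07). Basal tips at 24 h had 15.4, 19.3 and 12.2 CPM of loc20200, above every mid-gastric apical library at that time.

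Measured against the end being rebuilt, the basal tips came nearer to it than the apical tips, as a description, since heads and feet had chosen the loci. At 48 h 174 of the 200 loci were within 1 log2 unit of feet, or above them, in basal tips. The numbers against heads were 110 in decapitation tips and 99 in mid-gastric apical tips. In basal tips 41 loci were at or above feet, against 13 and 12 loci at or above heads in the 2 apical series. The median gap that remained was 0.39 in basal tips, 0.90 in decapitation tips and 1.02 in mid-gastric apical tips (log2). The targets were unequal: the median L of the chosen loci was 5.33 in heads and 5.15 in feet, and 125 loci were higher in heads. The shares over all loci are not given for these counts.

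Apical and basal tips of the same section were compared directly at 4 times. At 0.5 h 3 loci were higher in mid-gastric apical than in basal tips (0.101% of all loci) and 1 was lower (0.172%). That total of 4 (0.273% of all loci) was 2 without library B. At 8 h 2 were higher (0.345%) and 6 lower (0.374%). That total of 8 (0.718%) was 4 without library A and 1 without library B. At 24 h 5 were higher (1.48%) and 52 lower (2.49%) in mid-gastric apical tips, 57 in all (3.97%). At 48 h 7 were higher (4.21%) and 51 lower (3.75%), 58 in all (7.96%). The median log2 difference over the 200 loci was 0.02 at 0.5 h, -0.07 at 8 h and -0.42 at both later times. The loci called were mostly lower in apical tips at those later times.

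An interaction tested whether the change between 0.5 and 48 h differed between mid-gastric apical and basal tips. It was called for 55 of the 200 loci, against 6.43% of all loci: the change was larger in apical tips for 6 (3.79% of all loci) and smaller for 49 (2.64%). Its median was -0.51. At 48 h 55 loci were called higher in basal tips and not in mid-gastric apical tips, and 35 of those passed the interaction. The opposite held for 14 loci, of which 5 passed. For these counts of loci called in 1 series and not the other, the shares over all loci are not given.

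The difference at 48 h varied with the lean of the mature ends. In the 17 foot-leaning loci the median log2 difference between mid-gastric apical and basal tips at 48 h was -2.08, with 1 locus higher and 13 lower. In the 153 even loci it was -0.38, with 4 higher and 32 lower. In the 30 head-leaning loci it was -0.13, with 2 higher and 6 lower. The interaction was called as a smaller change in apical tips for 12 of 17 foot-leaning, 35 of 153 even and 2 of 30 head-leaning loci. Basal tips at 48 h were higher than at 0.5 h in 16 of 17 foot-leaning loci, with a median log2 fold change of 3.23. Across the 200 loci the Pearson correlation of the lean with the log2 difference was 0.44 at 48 h (Spearman's rho 0.40). It was -0.15 (rho -0.22) at 0.5 h, -0.20 (rho -0.27) at 8 h and 0.08 (rho 0.07) at 24 h. These correlations are across loci that share the same libraries, and no p is given for them.

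**Figure D4:**
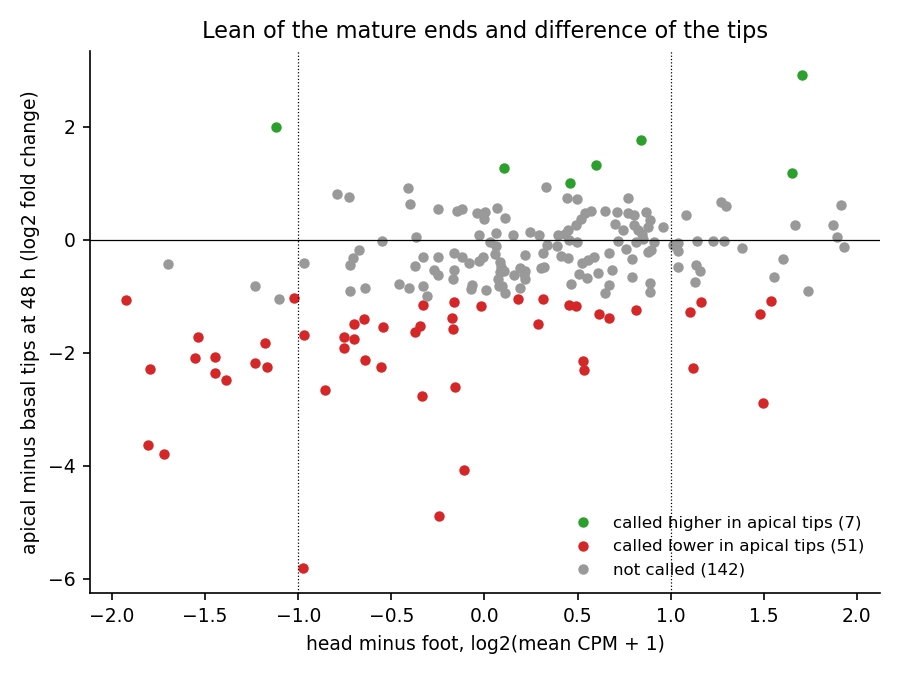
Each point is one of the 200 loci. The horizontal axis gives the level in heads minus the level in feet (log2) and the vertical axis the log2 fold change of mid-gastric apical over basal tips at 48 h. Foot-leaning loci, at the left, mostly lie below 0, and head-leaning loci, at the right, lie on both sides of 0.

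Single loci ran with or against their lean. The head-leaning loc04149, of 5 sequences, had 38.1, 45.2 and 52.9 CPM in mid-gastric apical tips at 48 h and 6.40, 5.60 and 6.20 CPM in basal tips. The log2 difference was 2.91 (SE 0.25, edgeR adjusted p = 5.124e-16), and the interaction of loc04149 was 2.89. It had 136, 108 and 116 CPM in heads and 44.7, 35.2 and 28.1 CPM in feet, so that basal tips at 48 h were below every foot. The foot-leaning loc09648 went the other way from its lean. It had 1179, 1660 and 1862 CPM in mid-gastric apical tips at 48 h and 231, 521 and 429.8 CPM in basal tips. The log2 difference of loc09648 was 2.01 (SE 0.69, edgeR adjusted p = 0.02666). That call was lost without library B (adjusted p = 0.17) and without library C (adjusted p = 0.0816).

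Other loci classed as even were high at 48 h in basal tips and low in apical tips. The even loc08344 had 0, 0.788 and 0 CPM in mid-gastric apical tips at 48 h and 13.1, 18.5 and 12.7 CPM in basal tips. The log2 difference was -5.81 (SE 0.64, edgeR adjusted p = 3.585e-11). In decapitation tips loc08344 had 0.103, 0.0297 and 0.132 CPM at 48 h. Heads had 22.6, 15.5 and 15.9 CPM of loc08344 and feet 37.1, 44.8 and 26.9 CPM, and feet were above heads in every library, with the lean just inside the limit of the even class. Basal tips were below every foot, and neither apical series had reached the head level by 48 h. Basal tips at 24 h already had 9.21, 8.58 and 3.35 CPM of loc08344, above every mid-gastric apical library at any time. The interaction for loc08344, with few reads in both groups at 0.5 h, was not called (edgeR adjusted p = 0.1441).

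The even loc16052 had 0.181, 0.158 and 0.182 CPM in mid-gastric apical tips at 48 h and 3.78, 7.49 and 4.79 CPM in basal tips. The log2 difference of loc16052 was -4.89 (SE 0.45, edgeR adjusted p = 1.247e-14), and the interaction was -4.85. Heads had 8.81, 5.86 and 9.60 CPM of loc16052. Its apical tips at 48 h thus stood below every head, and its basal tips overlapped the low end of the heads. The head and foot libraries of loc16052 overlapped, with L of 3.18 in heads and 3.43 in feet.

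The even loc18156 differed between the sides from the start. It had 4.29, 3.85 and 4.17 CPM in mid-gastric apical tips at 0.5 h and 0.971, 0.802 and 0.778 CPM in basal tips, a log2 difference of 2.27 (SE 0.32, edgeR adjusted p = 1.973e-06). At 48 h the mid-gastric apical tips had 9.57, 8.38 and 8.92 CPM and the basal tips 36.9, 44.4 and 83.9 CPM. The interaction of loc18156 was -4.86 (SE 0.41, edgeR adjusted p = 7.113e-16). In mid-gastric apical tips at 24 h it had 2.67, 3.91 and 2.44 CPM, below their lowest value at 48 h. In basal tips at 24 h it had 81.1, 105 and 70.3 CPM, above the 22.2, 13.7 and 17.9 CPM of feet in every library.

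**Figure D5:**
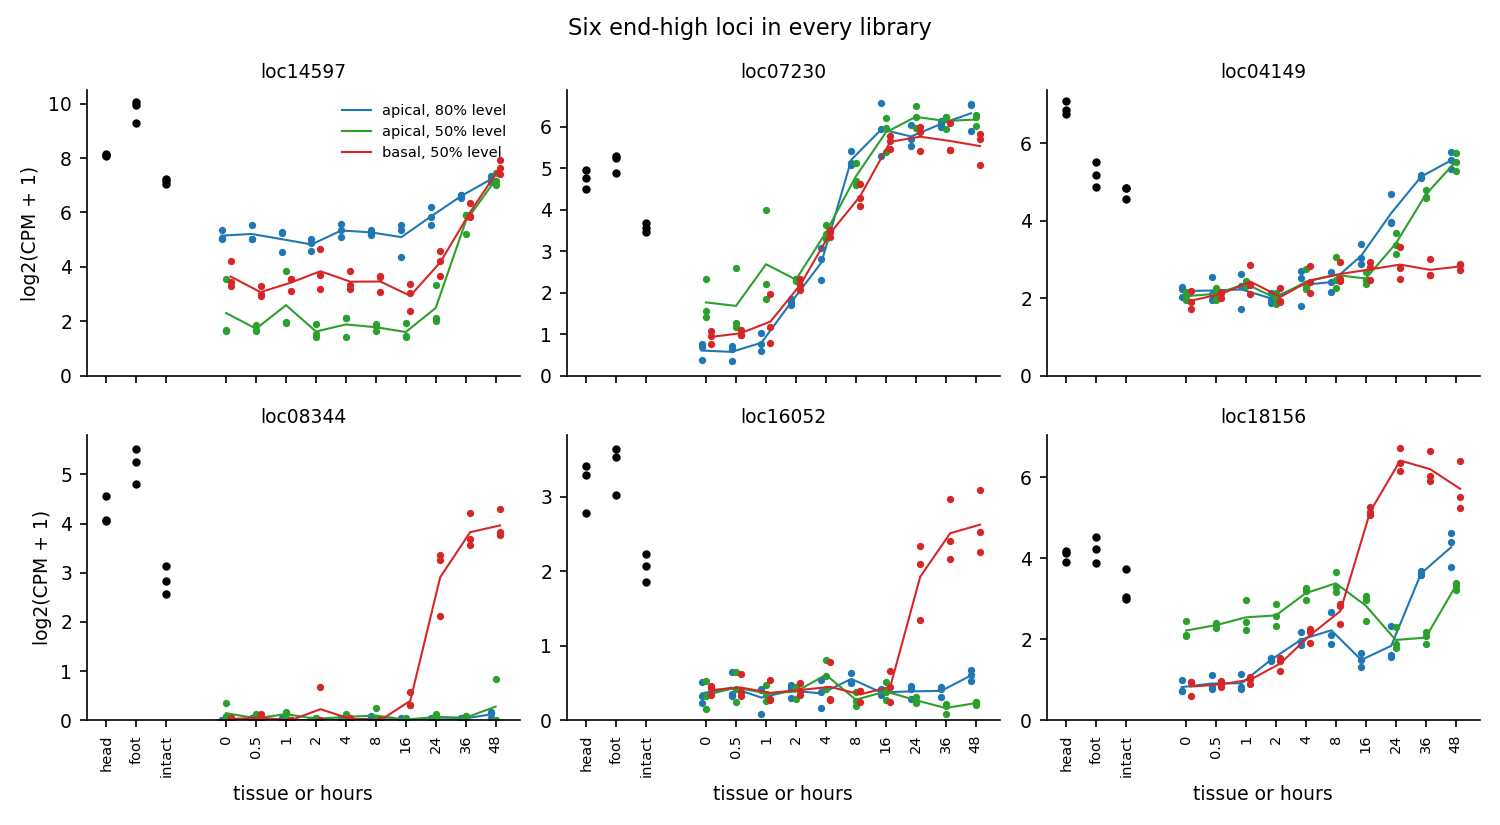
Level of 6 named loci in every library as log2(CPM + 1) (points, with lines through the group means), by time after section in the 3 series and in heads, feet and intact animals. loc07230 is above 16 CPM in every tip library at 8 h, loc04149 separates apical from basal tips at 48 h, and loc08344 and loc16052 are high at 48 h in basal tips while apical tips stay under 1 CPM.

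The upper and mid-gastric levels, both regenerating a head, were compared at the start and at 48 h. At 0.5 h 7 loci were higher in decapitation than in mid-gastric apical tips (0.924% of all loci) and 8 were lower (0.527%). At 48 h 2 were higher (0.263%), and 0 were called lower by edgeR or DESeq2, with 2 lower at an unadjusted p under 0.05. The median log2 difference was 0.05 at 0.5 h and 0.11 at 48 h. The total of 2 at 48 h became 4 without library A and 0 without library B or without library C. That is 0.441% of all loci in either direction. Both loci had log2 differences near the minimum of 1: loc18156 had 1.04 and loc16817 had 1.03. With the replicate letter as a block that of loc18156 was 0.988, under the minimum.

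At 0.5 h loc14597 was far higher at the upper level, with 31.9, 31.7 and 46.0 CPM in decapitation tips and 2.16, 2.13 and 2.63 CPM in mid-gastric apical tips. The log2 difference was 3.95 (SE 0.45, edgeR adjusted p = 2.635e-10). At 48 h the decapitation tips had 138, 149.7 and 159.5 CPM of loc14597 and the mid-gastric apical tips 174, 143 and 127 CPM, which overlapped. The even loc19354 had 10.1, 10.4 and 9.18 CPM in decapitation tips at 0.5 h and 1.86, 1.69 and 1.60 CPM in mid-gastric apical tips. The log2 difference of loc19354 was 2.49 (SE 0.28, edgeR adjusted p = 1.581e-10). loc07230 was lower at the upper level at 0.5 h, with a log2 difference of -2.36 (SE 0.52), a call lost without library C, which had 4.99 CPM in mid-gastric apical tips (adjusted p = 0.282).

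A locus can be high at both ends with another transcript sequence at each. The choice of loci used reads summed over the sequences of a locus in heads and feet, and not how those reads divide between sequences. Among the 134 loci with at least 2 tested sequences, 19 differed in sequence usage between heads and feet, by edgeR's diffSpliceDGE at an adjusted p under 0.05 and a change of share of at least 10 percentage points. That was so for 8.06% of 11000 loci. The shares were not matched for read depth, which also affects how many are called. Leaving out library A, B or C gave 12, 8 and 12 loci, and the share over all loci is not given for those fits. Whether the members exceed other loci in them was not tested. The leading sequence was the same in heads and feet for 122 of the 134 loci, and 5 of the 19 called loci had another one. For the leading sequence the shares over all loci are not given.

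The clearest exchange was in the head-leaning loc22029. Its sequence seq65074 took 74.4%, 74.8% and 74.0% of the reads of the locus in heads and 1.30%, 3.12% and 4.01% in feet (edgeR adjusted p = 1.532e-35). In mid-gastric apical tips at 48 h the share of seq65074 of loc22029 was 70.1%, 71.6% and 71.7%, and in basal tips 3.14%, 1.62% and 2.25%. The shares at 48 h lay near those of the mature end on the same side. The locus as a whole had 81.8, 71.5 and 77.0 CPM in mid-gastric apical tips and 42.6, 57.4 and 52.3 CPM in basal tips. The even loc10881 ran the other way. Its sequence seq27274 took 35.5%, 28.5% and 30.8% in heads and 75.3%, 80.0% and 81.3% in feet (edgeR adjusted p = 0.006367). The shares of seq27274 of loc10881 were 47.5%, 45.4% and 45.1% in mid-gastric apical tips at 48 h and 76.2%, 76.1% and 74.0% in basal tips. The call of loc10881 was lost without library A (adjusted p = 0.135) and without library C (adjusted p = 0.0635), and the shares of the remaining libraries stayed separate.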

How the data were processed

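The authors deposited whole-number read counts for 79774 transcript sequences in 99 libraries of polyA RNA (directional TruSeq, per the labels' protocols). The submitters' processing notes list cutadapt 1.11, Salmon 0.7.2 and DESeq2, without their roles; the transcriptome and filters are not given in the sources used here. Counts were checked to be whole numbers and summed per locus; the authors' normalized table was not used. Loci were tested in R 4.3.3 with edgeR 4.0.16 (filterByExpr, which kept 99.979% of reads; TMM factors 0.876 to 1.173; older quasi-likelihood method with a trended dispersion) in one model of all 99 libraries with one coefficient per group. Alternatives used DESeq2 1.42.0 and the settings in the closing section. The pipeline was tested on simulated data. Loci were called within a contrast over all loci tested.

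The members, groups, tests and lists were chosen with earlier results of these data known. Since names could not be had, at most 2 rising and 2 falling loci are named per comparison: those with the largest fold changes among called loci whose libraries do not overlap, and the 2 with the largest end excess. Same-lettered libraries of different series at one time deviated together from their group means (correlations from 0.113 to 0.706). The main fits hold no term for this pairing, so the counts in the Results are unpaired. Counts with the letter as a replicate block are in the closing section. The labels do not say what a letter shares. No library was dropped from the main fits.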

Additional observations from a re-analysis of the deposited data

Results flagged for a closer look

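The change from 0.5 to 48 h differed between mid-gastric apical and basal tips for 55 of the 200 loci, by the interaction in the edgeR model (edgeR adjusted p below 0.05, difference of 1 or more in size). The largest differences among these loci were those of loc04149 (2.89) and loc19354 (2.00), where apical tips changed more, and loc18156 (-4.86) and loc16052 (-4.85), where basal tips changed more (log2). The count of 55 was 53, 40 and 43 without library A, B and C.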

How the results depend on the processing

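No result reversed under any alternative that was run. Of the counts set against their alternatives, 186 stayed within 1.5 times the count reported and 21 did not. Counts here are in either direction. The shares over all loci under these alternatives are not given, so the counts show only how the calls among the 200 loci moved. With no fold-change minimum, 45 loci at 8 h and 97 at 24 h differed from 0.5 h in decapitation tips, and 52 at 8 h in mid-gastric apical tips. Mid-gastric apical against basal tips gave 18 loci (8 h), 94 (24 h) and 109 (48 h), and decapitation against mid-gastric apical tips 28 (0.5 h) and 7 (48 h). With no low-count filter the last of these gave 1. Leaving out 1 library letter at a time gave 16 to 23 loci at 8 h in decapitation tips, 21 to 29 in mid-gastric apical tips and 25 to 38 in basal tips. Mid-gastric apical against basal tips then gave 2 to 4 (0.5 h), 1 to 8 (8 h), 43 to 63 (24 h) and 46 to 64 (48 h), decapitation against mid-gastric apical tips 0 to 4 (48 h) and sequence usage 8 to 12. These fits have fewer libraries; no other cause was tested. The choice of loci itself kept 166 to 173 of the 200 without a letter, 187 with TMM-scaled libraries, and 189 and 162 with an offset of 0.5 and 5 in place of 1.

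With the replicate letter within time as a replicate block, mid-gastric apical against basal tips gave 5, 9, 58 and 59 loci from the earliest to the latest time, with 64 for the interaction, and 16 and 2 loci for decapitation against mid-gastric apical tips. Beside loc18156, it changed no call of a named locus. Within a series the letters did not pair the times throughout, and a letter block gave 114, 111 and 151 loci at 48 h in the 3 series and 21 for sequence usage. DESeq2 was not run for the F-tests over times. Loci with few reads at 0.5 h, such as loc08344 and loc15106, have fitted fold changes that depend on the prior count; with their limits in place no median over the loci moved by more than 0.014.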
